A study of Mus musculus with 7 samples.

Results

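The 10 genes described here encode transporters that move drugs, bile constituents and organic anions across the membranes of liver cells: 7 efflux pumps of the ABC family (Abcb1a, Abcb1b, Abcb4, Abcc2, Abcc3, Abcc4 and Abcg2) and 3 uptake transporters of the Slco family (Slco1a1, Slco1a4 and Slco1b2). Each was found by its symbol among the 14851 Ensembl genes of the deposited table, and all 10 had 1 row. The list was chosen by its biology but with results of the same comparison known, because Abcb1a had already been selected on its difference between the genotypes. Differences between the genotypes are therefore given for these 10 genes as a description. Their intervals and counts past a threshold come from a fit over all genes and are not read as a test of the members.

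RNA of whole liver was compared between 2 genotypes. In 4 mice, called FL, both p53 alleles were floxed (Albumin-Cre p53 FL/FL), and in 3 mice, called WT, both were intact (Albumin-Cre p53 WT/WT). Both groups carried Cre recombinase under the Albumin promoter, which is active in hepatocytes, so that p53 was deleted in those cells of FL mice. Whether other cells of the liver also lost it was not examined here. All mice were males of about 70 days on a C57BL/6J background (N10), and some of either genotype also carried a red fluorescent Rosa26 reporter. They were sampled 8 h after a single intraperitoneal dose of CCl4 (1 mL/kg from a 20% stock made up with corn oil), a solvent that hepatocytes convert into reactive radicals, and no untreated liver was analysed here. In the labels the names of the WT sources begin with one code and those of the FL sources with other codes. What the codes stand for is not stated, and anything they mark cannot be told apart from genotype.

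Trp53, the deleted gene, was listed at 131, 130, 217 and 110 normalised counts in the FL livers (replicates 1 to 4, an order used throughout) and at 876, 688 and 831 in the WT livers (replicates 1 to 3). The genotypes were thus as labelled in all 7 livers, with FL at 18.4% of the WT mean and a log2 difference of -2.47 (SE 0.23, adjusted p = 0.0447, limma). A normalised count is the number of reads on a gene divided by a factor for the size of its library, and a log2 difference is the FL minus the WT mean of log2(normalised count + 1). Depth was estimated at 11.9 to 19.5 M reads on genes per liver. All 8 hepatocyte markers were present in every liver, with a summed level of 1450283 to 1946965 in FL and 1245019 to 1508721 in WT livers. Ttr and Apoa1, secreted by hepatocytes, were higher in FL than in WT livers without overlap (log2 differences 0.39, SE 0.16, and 0.65, SE 0.20). Both had a limma adjusted p of 0.999, and the remaining hepatocyte markers overlapped. Over all tested genes, 4.76% did not overlap between the genotypes. WT replicate 2 and FL replicate 3 stood apart from the rest. On the first principal component, which held 66.7% of the variance, they lay at 82.0 and 29.2, whereas the other 5 livers lay between -25.6 and -19.1. Results that rest on these 2 livers are given with and without them.

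Efflux pumps use ATP to drive compounds out of the cell. In hepatocytes those of the canalicular membrane empty into bile and those of the basolateral membrane return compounds to blood, while Slco transporters of the basolateral membrane take organic anions, bile acids and many drugs up from blood. In rodents the P-glycoprotein that is encoded by a single gene in humans is encoded by the paralogs Abcb1a and Abcb1b, and Abcb1 genes have long been studied as possible p53 targets and as a cause of drug resistance in tumours. Several of the other genes respond to the xenobiotic receptors, to the bile acid receptor and to NRF2, the factor of the oxidative stress response.

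Abcb1a, Abcb1b and Abcb4 lie side by side on chromosome 5 of GRCm38, plus strand, at chr5:8660077-8748575, chr5:8798147-8866315 and chr5:8893717-8959231. The coding parts of Abcb1a and Abcb1b are 3828 bases long each and 88.0% identical over 3819 aligned bases. Identical stretches matter here because the reads were 36 bases long: the pair share 17 coding stretches of at least 36 bases, the longest of 338 bases. Of all distinct 36-base stretches in the GENCODE transcripts of Abcb1a, 20.0% also occur in those of Abcb1b, and 13.6% of those of Abcb1b occur in Abcb1a. A read within these stretches cannot be told apart by its own bases, although the reads were paired and its mate may lie elsewhere. Where both mates were shared, they may have been divided between the genes or left uncounted. Both levels are therefore uncertain, to an extent that was not measured. The next lines show, 5′ to 3′, the 120 coding bases where the longest shared stretch begins (exons 12 to 13; chr5:8702273-8702482 in Abcb1a and chr5:8824593-8824802 in Abcb1b, plus strand, with the intron left out), with the 2 mismatches between the paralogs in capitals.
Abcb1a: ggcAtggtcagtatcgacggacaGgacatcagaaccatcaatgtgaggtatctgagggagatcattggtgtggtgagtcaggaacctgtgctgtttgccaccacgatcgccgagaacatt
Abcb1b: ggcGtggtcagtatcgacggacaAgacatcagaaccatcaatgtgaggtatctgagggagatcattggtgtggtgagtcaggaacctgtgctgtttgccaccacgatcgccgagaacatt

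By contrast the paralogs can be separated easily in the most different 120 coding bases, which have 38 mismatches, again in capitals (exons 17 to 18; chr5:8715817-8719026 in Abcb1a and chr5:8827778-8828870 in Abcb1b, plus strand, intron left out).
Abcb1a: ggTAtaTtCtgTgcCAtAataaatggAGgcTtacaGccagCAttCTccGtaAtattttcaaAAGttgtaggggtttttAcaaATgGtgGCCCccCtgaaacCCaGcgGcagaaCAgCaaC
Abcb1b: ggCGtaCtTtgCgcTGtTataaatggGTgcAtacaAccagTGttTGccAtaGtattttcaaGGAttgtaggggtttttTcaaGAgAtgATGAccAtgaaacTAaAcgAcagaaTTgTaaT

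For the other members sharing was smaller: 4.1% of the 36-base stretches of Abcb4 occur in another gene, 3.56% of those of Slco1a4, 2.9% of Slco1a1, 2.0% of Abcg2, 0.173% of Abcc4 and 0.165% of Abcc2. None of the stretches of Abcc3 or Slco1b2 did.

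The RefSeq promoter table of GRCm38.p6 held 12 start sites for 9 of the members. Windows from 250 bases before to 50 bases after each start were searched on both strands for the p53 half-site, for the antioxidant response element that NRF2 binds (TGACNNNGC) and for the STAT site (TTCNNNGAA). A p53 half-site occurred in 3 of the 12 windows and in 8.36% of all 32851 windows, an antioxidant response element in 4 of 12 and 12.4%, and a STAT site in 2 of 12 and 8.3%. The half-sites were those of Abcb1b (first base at -191), Abcc2 (-41) and Slco1a1 (-19), and Abcc2 also held an antioxidant response element at -98. The Abcc4 start at its 5′ end held an antioxidant response element at -25 and a STAT site at 3, and its other start an antioxidant response element at -23. Slco1b2 held a STAT site at -206, while the windows of Abcb4, Abcg2 and Slco1a4 held no match. A match describes these letters alone and no binding was measured. The 250 bases before the starts of the P-glycoprotein genes are printed because only that of Abcb1b holds a half-site, with the p53 half-site of Abcb1b in capitals (chr5:8566841-8567090 for Abcb1a and chr5:8797897-8798146 for Abcb1b, plus strand).
Abcb1a: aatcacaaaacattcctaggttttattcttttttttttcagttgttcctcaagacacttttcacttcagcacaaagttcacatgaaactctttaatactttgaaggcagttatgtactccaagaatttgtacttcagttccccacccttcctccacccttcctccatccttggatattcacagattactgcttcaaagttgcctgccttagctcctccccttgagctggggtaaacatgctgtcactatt
Abcb1b: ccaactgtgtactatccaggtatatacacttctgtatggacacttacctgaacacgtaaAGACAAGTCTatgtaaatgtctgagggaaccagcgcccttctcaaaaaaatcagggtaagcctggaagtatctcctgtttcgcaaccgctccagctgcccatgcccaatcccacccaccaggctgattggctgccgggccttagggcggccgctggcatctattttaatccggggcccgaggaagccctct

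The RefSeq start of Abcb1a lies 92986 bases before the start of the GENCODE gene, so its window, which holds an antioxidant response element at 27, may not be the start used in liver. That of Abcb1b is the same in both annotations.

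Levels were compared between genes per kilobase of merged exons. Abcc3, which exports conjugates to blood, was the highest with a mean of 895 ± 193 normalised counts per kilobase (SD over all 7 livers), and was followed by Slco1b2 (708 ± 186), Abcb4 (644 ± 79.2), Abcc2 (556 ± 94.2) and Slco1a1 (419 ± 183). Well below these lay Abcg2 (116 ± 23.1), Slco1a4 (108 ± 71.8) and Abcc4 (81.3 ± 58.2), and then Abcb1a (21.1 ± 9.63) and Abcb1b (3.99 ± 1.6). P-glycoprotein transcripts were thus the least abundant of the list in these livers. Only the steps from Abcc4 to Abcb1a and from Abcb1a to Abcb1b were taken in the same direction in 7 of 7 livers, and on this scale Abcb1a and Abcb1b were the only neighbours whose ranges did not overlap. The other neighbours changed places in at least 1 liver, so their order did not hold throughout. Slco1a1 was above Abcg2 in 6 of 7 livers, all but WT replicate 2. Per kilobase of the longest coding transcript Abcb4 moved to the top (1480 ± 182), followed by Slco1b2 (1055 ± 278), Abcc3 (1020 ± 220) and Abcc2 (591 ± 100.2), so the order of the 4 highest genes depended on the length used. With that length Abcb1a (23.1 ± 10.6) and Abcb1b (7.4 ± 2.98) remained the lowest, but their ranges met (10.6 to 36.8 and 3.02 to 10.9). On that scale Abcb4 was above Slco1b2, and Abcc3 above Abcc2, in 7 of 7 livers.

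**Figure D1:**
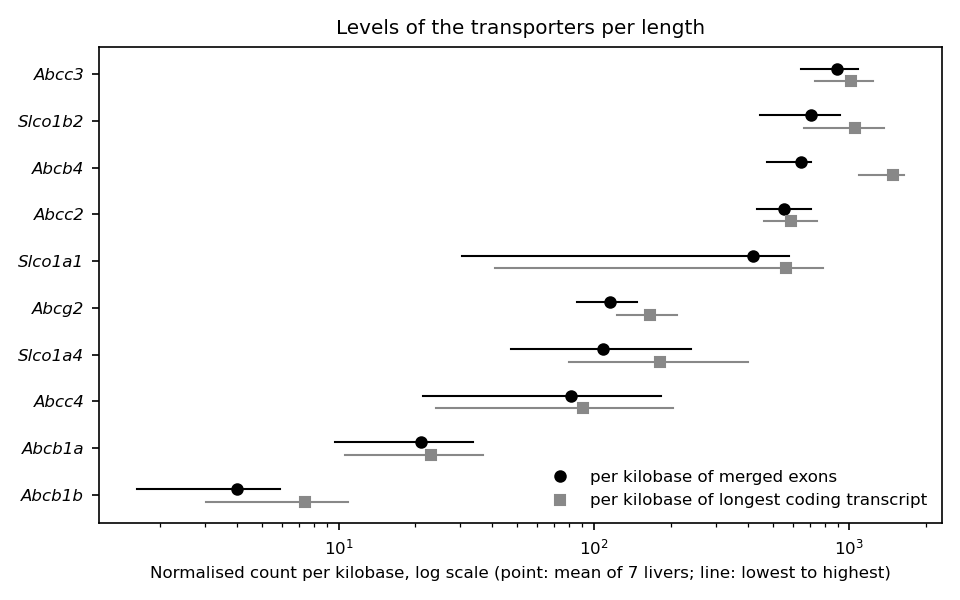
Levels of the 10 transporters as normalised counts per kilobase on a log axis. Points give the mean and lines the lowest and highest of the 7 livers, with circles for merged exons and squares for the longest coding transcript. Abcb1a and Abcb1b are lowest on either scale, and the line of Slco1a1 extends far to the left because of 1 liver.

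Abcb1a encodes a P-glycoprotein that pumps hydrophobic drugs out of cells. Its FL livers held 81, 93, 75 and 53 normalised counts, and its WT livers 184, 145 and 178. The groups did not overlap, and the livers that stood apart on the principal component lay within the range of the other livers of their genotype or, for WT replicate 2, somewhat below it. The means were 75.5 ± 16.8 (SD, n = 4) in FL and 169 ± 21.0 (SD, n = 3) in WT, so that FL stood at 44.7% of WT, and the log2 difference was -1.17 (SE 0.21, 95% interval -1.67 to -0.68). These values are part of what the list was chosen on. The log2 difference was -1.29 without WT replicate 2 and FL replicate 3 and lay between -1.28 and -1.01 when single livers were left out. In bulk RNA, fewer cells that express a gene and less RNA per cell cannot be told apart.

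Abcb1b, the paralog with a similar substrate range, had 15, 35, 38 and 13 normalised counts in FL livers and 36, 39 and 47 in WT livers. FL replicate 3 lay within the WT range and FL replicate 2 just below it, whereas FL replicates 1 and 4 were at less than 50% of the lowest WT liver. Its log2 difference of -0.81 had an SE of 0.42 and a 95% interval of -1.77 to 0.16, which includes 0. Counting error was not small for this gene, because its values correspond to between 12 and 51 reads per liver, against 49 to 205 for Abcb1a. Without FL replicate 3 the log2 difference was -1.05 and without FL replicate 4 it was -0.55.

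The ratio of the paralogs was read across livers only, since it is not per length. The log2 ratio of Abcb1a to Abcb1b was 2.36, 1.38, 0.96 and 1.95 in FL livers and 2.32, 1.87 and 1.9 in WT livers. It was as high in FL replicate 1 as in WT replicate 1, and the FL mean of 1.66 ± 0.62 and the WT mean of 2.03 ± 0.25 differed by less than the pooled SD of 0.50. The sum of the pair does not depend on how shared reads were divided between them, but reads left uncounted would be missing from it. It was 96, 128, 113 and 66 in FL livers and 220, 184 and 225 in WT livers, which did not overlap, and its FL mean was 48.1% of that in WT livers. Abcb1a held most of the sum in all 7 livers, so the gap between the groups largely repeats values that the list was chosen on.

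**Figure D2:**
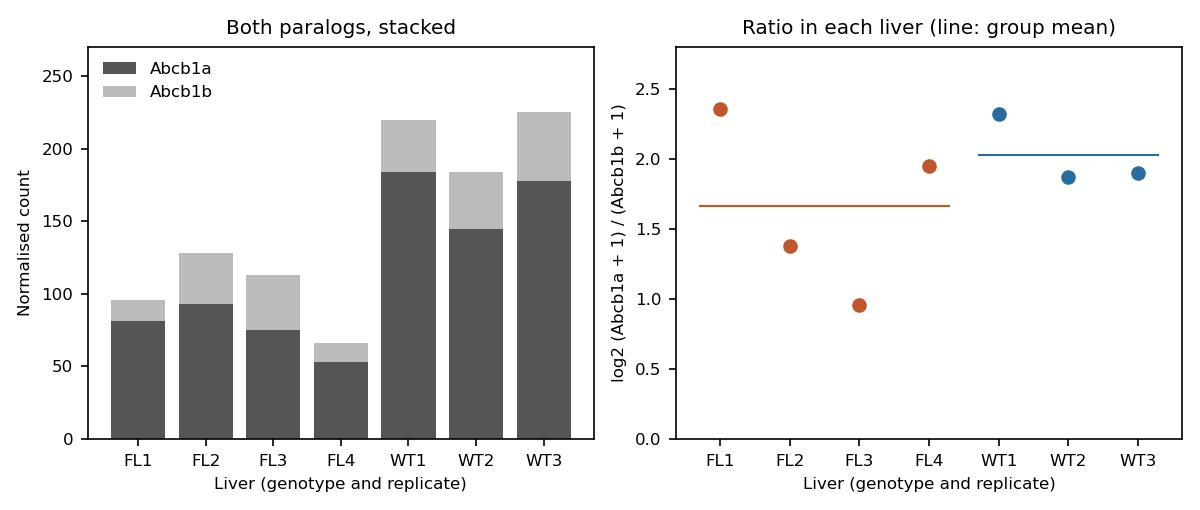
Abcb1a and Abcb1b in each liver, as stacked normalised counts (left) and as the log2 ratio of the pair (right, with the group mean as a line). The stacked sum is 66 to 128 in the 4 FL and 184 to 225 in the 3 WT livers, whereas the ratios overlap.

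Abcb4, the next gene on the chromosome, encodes the canalicular floppase that supplies phospholipid to bile. It had 6277, 6652, 4457 and 6533 normalised counts in FL livers and 6091, 5922 and 6377 in WT livers. FL replicate 3 was the lowest, FL replicate 1 lay within the WT range and FL replicates 2 and 4 above it. The log2 difference of -0.05 (SE 0.16, 95% interval -0.42 to 0.31) changed sign to 0.08 without FL replicate 3. That of Abcb4 was thus nearer to 0 than those of its neighbours.

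Genes of bile ducts, which also express some of these transporters, moved with Abcb1a. Of 8 bile duct markers, Krt19 (6 to 21 in FL against 26 to 128 in WT), Krt7 (2 to 18 against 28 to 33) and Cftr (0 to 1 against 3 to 5) were lower in FL than in WT livers without overlap, and Sox9 was higher (297 to 763 against 204 to 261). The summed level of all 8 markers overlapped, at 1013 to 1738 in FL and 1195 to 1659 in WT livers, and only Cftr was listed at 0, in FL replicates 1, 3 and 4. Among all tested genes, which do not include Cftr, 4.76% did not overlap between the genotypes. The part of bile duct cells in the values of Abcb1a was not tested.

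Abcc2 (MRP2, chr19:43782192-43840740, plus strand) is the canalicular pump for bilirubin glucuronides and glutathione conjugates. It had 4444, 4484, 3715 and 4104 normalised counts in FL livers and 4945, 5509 and 6020 in WT livers. Besides Abcb1a it was the only member whose FL and WT livers did not overlap, although the gap was narrow and FL stood at 76.2% of WT (4187 ± 358 against 5491 ± 538). The log2 difference was -0.39 (SE 0.12, 95% interval -0.66 to -0.12), and it lay between -0.46 and -0.32 when single livers were left out.

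Abcc3 (MRP3, chr11:94343295-94392997, minus strand) exports glucuronides to blood and lies on the chromosome of Trp53. It had 5909, 5566, 3684 and 3807 normalised counts in FL livers and 6148, 4429 and 6170 in WT livers. FL replicates 3 and 4 and WT replicate 2 were low, and the groups overlapped. The log2 difference was -0.25 (SE 0.22, 95% interval -0.75 to 0.25). It was -0.41 without WT replicate 2, -0.14 without FL replicate 3, and -0.16 or -0.17 without FL replicate 4, WT replicate 1 or WT replicate 3.

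Abcc4 (MRP4, chr14:118482692-118706219, minus strand) exports bile acids and cyclic nucleotides to blood. It had 225, 220, 742 and 137 normalised counts in FL livers and 445, 1168 and 698 in WT livers. FL replicate 3 alone kept the groups from being apart, as it exceeded 2 of the WT livers. The log2 difference of -1.42 was the most negative of the list, but its SE was 0.56 and its 95% interval ran from -2.72 to -0.12. Without FL replicate 3 it was -1.91, without WT replicate 2 it was -1.06, and without both -1.55.

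Abcg2 (BCRP, chr6:58584523-58695676, plus strand) is a canalicular pump for sulfate conjugates and many drugs. It had 941, 1111, 701 and 919 normalised counts in FL livers and 1036, 723 and 1206 in WT livers. FL replicate 3 and WT replicate 2 were the lowest of their groups and close to each other. The log2 difference was -0.09 (SE 0.21, 95% interval -0.58 to 0.40). Its sign turned without FL replicate 3 (0.03) and without WT replicate 3 (0.07), and it was -0.30 without WT replicate 2, -0.19 without FL replicate 2 and -0.04 without WT replicate 1.

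**Figure D3:**
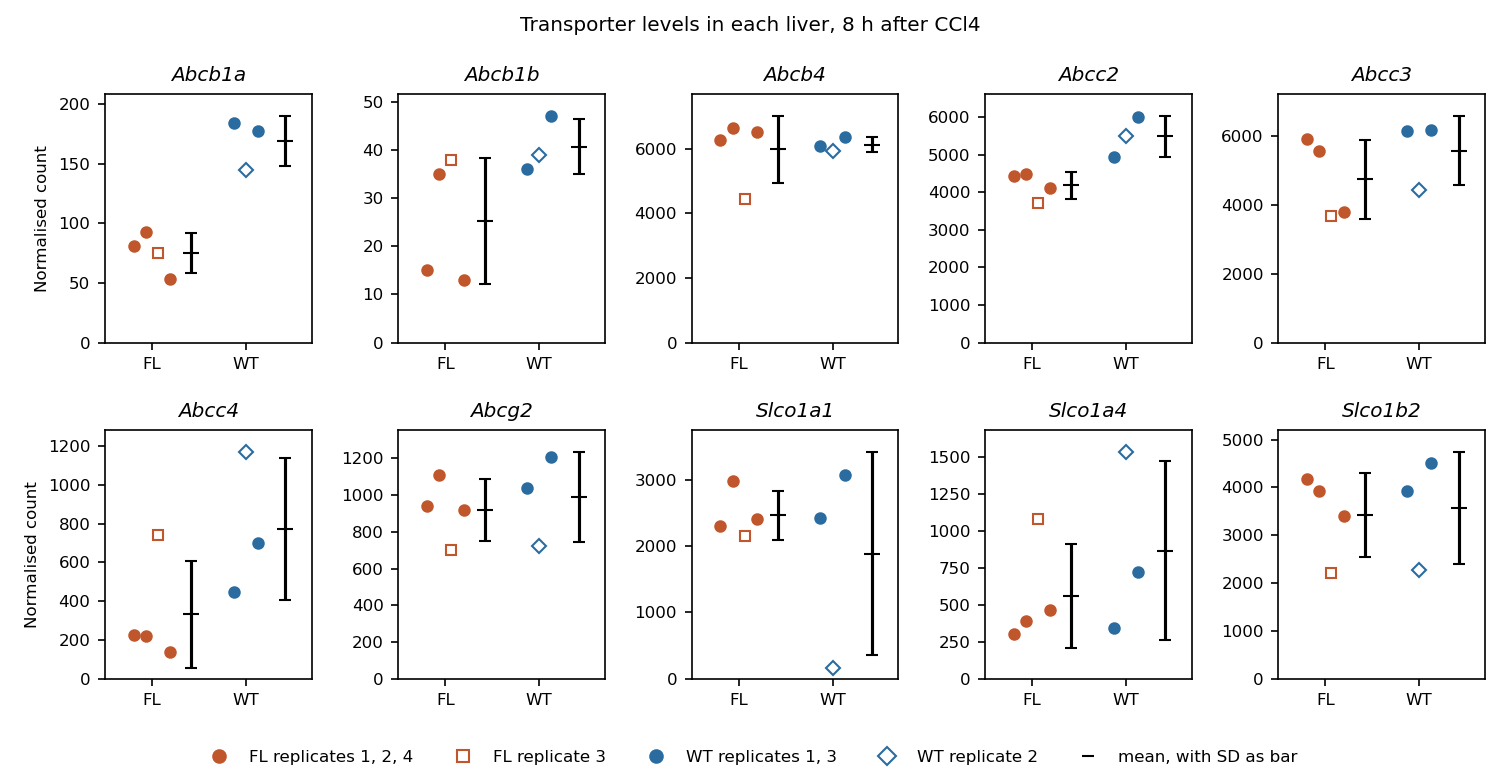
Normalised counts of the 10 transporters in each FL and WT liver, each panel with its own axis from 0. Bars give the mean and SD of a group, and open symbols mark FL replicate 3 (square) and WT replicate 2 (diamond). The groups are apart in Abcb1a (53 to 93 against 145 to 184) and Abcc2 (3715 to 4484 against 4945 to 6020), in Slco1a4 and Abcc4 both open symbols lie highest in their group, and in Slco1a1 WT replicate 2 lies far below the rest.

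The uptake genes lie together on chromosome 6. Slco1b2 (chr6:141629518-141686646, plus strand), a hepatocyte carrier for bilirubin and statins, had 4179, 3922, 2203 and 3406 normalised counts in FL livers and 3924, 2269 and 4517 in WT livers. FL replicate 3 and WT replicate 2 were at 0.561 and 0.578 times the median of the other 5 livers, and the remaining livers of the genotypes overlapped. The log2 difference was -0.04 (SE 0.29, 95% interval -0.72 to 0.64). It was 0.16 without FL replicate 3 or WT replicate 3, 0.06 without WT replicate 1, -0.34 without WT replicate 2, -0.15 without FL replicate 1 and -0.12 without FL replicate 2.

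Slco1a1 (OATP1A1, chr6:141907282-141946962, minus strand) takes up steroid conjugates and bile acids and is known for its higher level in male than in female mouse liver. It had 2302, 2975, 2142 and 2411 normalised counts in FL livers and 2420, 160 and 3068 in WT livers. WT replicate 2 alone was low, 15.1-fold below the median of the 5 livers other than it and FL replicate 3, and the remaining 6 livers lay between 2142 and 3068. The log2 difference of 1.20 (SE 0.92, 95% interval -0.92 to 3.32) was decided by that liver. It was -0.16 without WT replicate 2, -0.10 without WT replicate 2 and FL replicate 3, and 1.97 and 1.8 without WT replicates 3 and 1.

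Slco1a4 (OATP1A4, chr6:141805440-141856199, minus strand) carries cardiac glycosides and bile acids and is higher in female than in male mouse liver. It had 304, 388, 1080 and 466 normalised counts in FL livers and 344, 1533 and 722 in WT livers. The same livers were the highest of their groups, at 3.95 times (WT replicate 2) and 2.78 times (FL replicate 3) the median of the other 5. The log2 difference was -0.55 (SE 0.56, 95% interval -1.86 to 0.75). It was -0.01 without WT replicate 2, -0.93 without FL replicate 3, -1.09 without WT replicate 1, -0.32 without FL replicate 1 and -0.39 without both of the livers that stood apart.

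**Figure D4:**
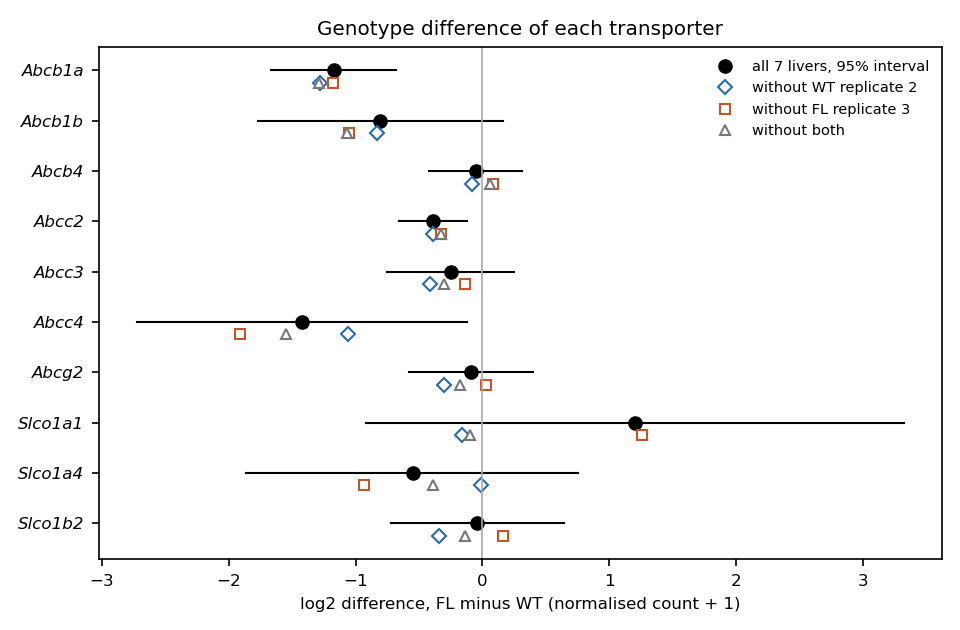
Log2 difference of each transporter (FL minus WT) with its 95% interval over all 7 livers, and without the livers that stood apart (open symbols). Abcb1a stays between -1.29 and -1.17 in these 4 fits, whereas Slco1a1 goes from 1.20 to -0.16 without WT replicate 2.

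Of the 10 members 0 had a limma adjusted p under 0.05, against 0.0159% of the 12545 genes tested (Trp53 and Eda2r). In the authors' own DESeq2 comparison of these livers, Abcb1a was among the genes with an adjusted p under 0.05. Its call thus differed between DESeq2 on counts and limma on the rounded values. With limma an unadjusted p under 0.05 was found for 3 members, Abcb1a, Abcc2 and Abcc4, against 3.2% of all tested genes. In 2 members, Abcb1a and Abcc2, the genotypes did not overlap, against 4.76% of all genes in either direction and 1.98% with the FL livers below. Because the members were chosen with this comparison known, nothing is read from these counts. Log2 differences were negative for 9 of 10 members, with a median of -0.32. Over the 12545 tested genes they were negative for 6070, with a median of 0.01. Those of Slco1b2 (-0.04), Abcb4 (-0.05) and Abcg2 (-0.09) changed sign when some livers were left out, and nothing is read from this count either. Without FL replicate 3 the livers of 4 members did not overlap, with Abcb1b and Abcc4 added (11.4% of all genes in that setting), without WT replicate 1 those of 3, with Abcb1b added (9.1%), and without WT replicate 2 those of 3, with Abcc3 added (19.6%). Without both livers that stood apart it was 5 members (Abcb1a, Abcb1b, Abcc2, Abcc3 and Abcc4) and 27.3% of all genes.

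Several members also differed widely between livers of one genotype. Compared with the range of the other 5 livers, WT replicate 2 was above it for Abcc4 and Slco1a4 and below it for Abcb4, Abcg2, Slco1a1 and Slco1b2. FL replicate 3 was above it for the same pair and below it for those 4 and for Abcc2 and Abcc3. Such positions were common, as 36.5% and 37.6% of all tested genes were above and below that range in WT replicate 2, and 30.3% and 30.5% in FL replicate 3. Abcb1a and Abcb1b were within the range in either liver.

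Lists of other genes moved with these livers. Of 12 male-biased liver genes, 11 were lowest in WT replicate 2, with Hsd3b5, a steroid dehydrogenase of male liver, at 2 normalised counts there and at 251 to 779 in the others. Their summed level was 41243 in WT replicate 2 and 138969 in FL replicate 3, against 95502 to 174031 in the other 5 livers. Serpina1e held most of the sum, with 112769 in FL replicate 3. Without that gene the sum was 12861 in WT replicate 2 and 26200 in FL replicate 3, against 33221 to 45017, and single genes were below the other 5 livers in 11 and 6 of 12 cases. Of the 9 female-biased genes in the table, 5 were highest in WT replicate 2 and 3 in FL replicate 3, among them Cux2, a repressor of male-biased genes, at 448 and 668 in these livers, 264 in WT replicate 3 and 31 to 108 in the rest. Their summed level was 4509 and 2978, against 985 to 1734. Slco1a4 and Abcc4 were likewise highest in WT replicate 2 and FL replicate 3, followed by WT replicate 3.

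Proliferation genes had a summed level of 1925 in WT replicate 2 and 859 in FL replicate 3, against 609 to 769 in the other 5 livers, and 10 of 12 were highest in WT replicate 2. Macrophage markers stood at 12545 and 7806 against 4864 to 6138, and stellate cell markers at 8096 and 3891 against 2963 to 3296, each with 7 of 8 markers highest in WT replicate 2. Endothelial markers were at 3593 and 3282 against 2539 to 3043, T and NK cell markers at 197 and 102 against 37 to 57, and neutrophil markers at 190 and 125 against 44 to 108. The hepatocyte sum of WT replicate 2 (1508721) was within the range of the other 5 livers (1245019 to 1828473) and that of FL replicate 3 was above it. Alb held most of that sum (1200274 in WT replicate 2), and 4 of the 8 hepatocyte markers (Apoa1, Asgr1, Hnf4a and Serpina1c) were lowest of all livers in WT replicate 2. The bile duct sum of WT replicate 2 (1659) was within 1195 to 1738 and that of FL replicate 3 (1013) was below it. Sums of the genes most related to the members were lower in WT replicate 2: NRF2 targets were at 61225 and 87334 against 128441 to 177205, other transporters at 34585 and 37471 against 37600 to 40864, and the regulators of transporters at 28969 in WT replicate 2 and 34757 in FL replicate 3 against 32259 to 36935. Without their most abundant genes, Slc10a1 and Hnf4a, the sums of the other transporters (30997) and of the regulators (19422) in WT replicate 2 lay within the range of the other 5 livers (30515 to 34556 and 18881 to 21136), whereas that of the NRF2 targets without Srxn1 (46896 and 52258) was still below it (68247 to 95506). The bile duct sum of FL replicate 3 without Spp1 (745) lay within 619 to 1137. The part of these shifts in the values of the transporters was not tested.

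**Figure D5:**
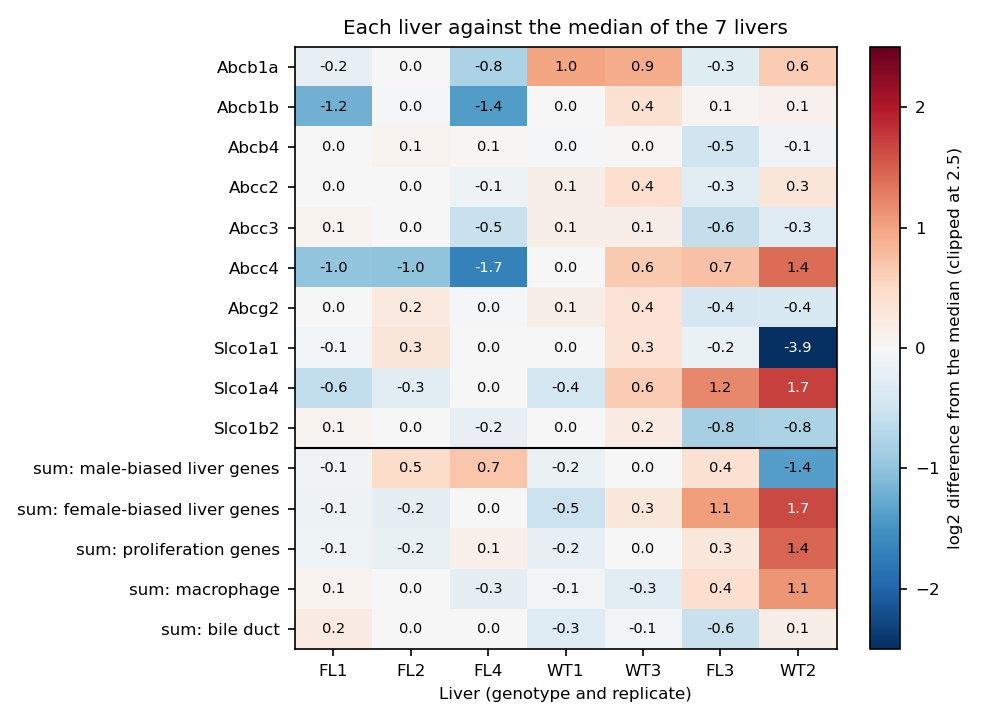
Log2 difference of each liver from the median of the 7 livers for the 10 transporters and for the summed level of 5 gene lists, with the livers that stood apart on the first principal component placed at the right. Colours are clipped at 2.5. Abcc4, Slco1a4 and the female-biased sum are high in FL3 and WT2, and Slco1a1 and the male-biased sum, of which Serpina1e holds most, are low in WT2.

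Among other transporters of drugs and organic ions, FL and WT livers overlapped in all tested genes but 1. Over all tested genes, 4.76% did not overlap. Of 29 listed genes 26 were in the table and 23 were tested, with a median log2 difference of -0.05. In limma 0 had an adjusted p under 0.05 and 1 an unadjusted p under 0.05, against 3.2% of all tested genes. The 1 gene in either count was Abcc1 (MRP1), an exporter of glutathione conjugates. It had 82, 76, 129 and 46 normalised counts in FL livers and 150, 166 and 173 in WT livers. The FL livers were all below the WT livers, and the log2 difference of -1.05 (SE 0.31, 95% interval -1.77 to -0.33, limma adjusted p = 0.999) did not pass the threshold. The next in size were Abcc5, a cyclic nucleotide exporter, at -0.30 (SE 0.40), and Slc10a1 (NTCP), the main bile acid uptake carrier, at 0.28 (SE 0.21). Both overlapped between the genotypes, and WT replicate 2 held the highest Abcc5 value (325) and the lowest Slc10a1 value (3588).

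Of 14 regulators of transporter genes, all tested, 0 passed the adjusted threshold in limma and 2 had an unadjusted p under 0.05. Over all tested genes, 3.2% had such an unadjusted p and 4.76% did not overlap between the genotypes. The median log2 difference of the regulators was 0.06. The largest differences were those of Cux2 (-0.44, SE 1.11), which followed the livers described above, of Nfe2l2 (-0.33, SE 0.11) and of Hnf4a, a master factor of hepatocytes (0.31, SE 0.15). Nfe2l2, which encodes NRF2, had 1494, 1274, 1274 and 1197 normalised counts in FL livers and 1617, 1713 and 1583 in WT livers. The groups did not overlap, and the limma adjusted p was 0.999. The other gene with an unadjusted p under 0.05 was Nr1h4, the bile acid receptor, which was named after its values were seen: it had 1932 to 2101 in FL and 1636 to 1664 in WT livers, also without overlap (adjusted p = 0.999, limma).

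Of 10 NRF2 targets, all tested, 0 passed and 3 had an unadjusted p under 0.05 in limma, with a median log2 difference of 0.06. The shares over all tested genes were 3.2% for such a p and 4.76% for groups without overlap. Slc7a11, the cystine importer, had a log2 difference of -1.05 (SE 0.36), Gsta1, a glutathione transferase, of -0.98 (SE 0.26), and Nqo1, a quinone reductase, of -0.90 (SE 0.23), all with a limma adjusted p of 0.999. Nqo1 had 102, 107, 139 and 84 normalised counts in FL livers and 168, 267 and 177 in WT livers, and Gsta1 54 to 70 in FL and 76 to 154 in WT livers. The groups did not overlap for these last genes, whereas Slc7a11 had 209 to 488 in FL and 483 to 851 in WT livers. The list did not move as one, because 4 of its 10 log2 differences were negative and the most abundant target, Srxn1, was lowest in WT replicate 2 (14329, against 35076 in FL replicate 3 and 60194 to 81699 in the others).

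The genes with a pattern most like that of Abcb1a were found by the Euclidean distance of log2 values, centred for each gene, over the 7 livers. The nearest of the 12545 tested genes was Uprt, a uracil phosphoribosyltransferase homolog (distance 0.54), with 8 to 12 normalised counts in FL and 17 to 21 in WT livers. It was followed by Serpinb1a, a protease inhibitor (0.72, 5 to 15 against 20 to 27), and by Ccng1, cyclin G1 (0.74, 351 to 395 against 626 to 848). Bmp7, a secreted growth factor (14 to 32 against 38 to 56), and Tns4, a tensin (5 to 8 against 11 to 21), came next, both at 0.84. All 5 had the FL livers below the WT livers, which likeness to Abcb1a brings with it, and the distance of the median gene was 1.81. Among the members Abcc2 (1.21) and Abcb1b (1.22) were nearest to Abcb1a, at ranks 119 and 130, and Slco1a1 (4.41) was the farthest.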

How the data were processed

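The authors aligned paired reads of poly(A) RNA with TopHat2 (version 2.0.13) and Bowtie2 (2.2.6.0), counted them per gene with HTSeq (2.2.4.0) and normalised with DESeq2 in R (3.4.2). The labels also list featureCounts, and the genome is written there as a human build, although its Ensembl release 75 holds mouse GRCm38. The authors rounded the normalised values before they deposited them, so they were treated as a score without a fixed unit. Reads could only be estimated from the rounded values, and no test on counts was run. The table held 14988 rows for 14851 identifiers. The 120 repeated identifiers had identical values. GENCODE vM21 named 14839.

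Genotypes were compared with limma (3.58.1, R 4.3.3, eBayes with trend, two-sided) on log2(value + 1) over the 12545 genes that averaged 10 or more, adjusted by Benjamini-Hochberg at 0.05. The fit was tested on simulated data in which genes varied independently, with spreads capped at the median. That test therefore did not cover livers that stand apart. The value of 1 read (0.811 to 1.384), fitted from the spacing of low values, gave the estimated depth and the reads per gene, and intervals from it would cover counting error only. Chi-square per degree of freedom within a genotype was 10.0 to 134, so no pair was a repeat of a library. The tables were made with Python 3.11.15 and pandas 2.3.3, and Biopython 1.88 aligned the coding sequences.

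The members and all gene lists were chosen with earlier results of these data known. Named genes were the 10 members, Trp53, the 3 tested genes with the largest log2 difference of the other transporters, the regulators and the NRF2 targets, and the 5 genes nearest to Abcb1a. Others (genes of the marker and sex-biased lists, Eda2r, Nr1h4, Srxn1) were named after their values were seen. No source says that equal replicate numbers pair the mice. P-values measure the spread between these livers, each from 1 mouse. Alternatives were adding 0.5 or 5 before the log, testing every gene, requiring 10 in each liver, quantile and upper-quartile scaling, limma without the trend or with robust priors, a block for the replicate number, and fits without single livers or without WT replicate 2 and FL replicate 3. The counts of members without overlap under these settings, and levels by the longest coding transcript, were added after seeing the data.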

Additional observations from a re-analysis of the deposited data

Results flagged for a closer look

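For 27 results, the FL livers were checked for 1 that lay apart from the remaining 3, by Dixon's rule for 4 samples, which chance meets in about 1 of 20 groups. It was met by 3 results. All 3 concern FL replicate 3. Abcb4 was at 4457 normalised counts there and at 6277 to 6652 in the other FL livers, a gap that only just met the rule. Abcc4 was at 742 and otherwise at 137 to 225. Cux2 was at 668 and otherwise at 31 to 108. The WT livers, 3 in number, were not examined in this way.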

How the results depend on the processing

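With limma, 0 of the 10 members, 0 of the other transporters and 0 of the regulators and NRF2 targets had an adjusted p under 0.05 over all genes in each of the 17 alternatives, and the lowest adjusted p of a member was 0.0938, for Abcc4 without WT replicate 2 and FL replicate 3. Of the members, 1 to 4 had an unadjusted p under 0.05 across the alternatives. Over all genes, 2 were called, 1 with quantile scaling, 6 without WT replicate 2 and FL replicate 3, 0 to 5 when single livers were left out, and 0 with 5 added before the log, with 10 required in each liver, without the trend or with the replicate block. Of 170 values of the log2 difference of a member, 9 changed sign, all when livers were left out and all in Abcb4, Abcg2, Slco1a1 and Slco1b2. The livers of 2 members did not overlap between the genotypes, 2 with either scaling, 2 to 4 when single livers were left out, and 5 without WT replicate 2 and FL replicate 3. The difference in the log2 ratio of Abcb1a to Abcb1b (-0.37) lay between -0.60 and -0.13. Same-numbered livers deviated with correlations of 0.44, -0.48 and -0.66. WT replicate 2 and FL replicate 3, which differ in number, weigh heavily in these values. The correlations therefore cannot decide whether the numbers pair the mice. With the replicate block, which leaves FL replicate 4 without a partner, the difference in the log2 ratio was -0.46 and the log2 difference of Abcb1a was -1.01. Abcb1b, at 12 to 51 reads, was limited most by depth.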
